A study of Mus musculus with 933 samples.

Results

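The genes described here are the nuclear genes for subunits of the oxidative phosphorylation enzymes, followed in single mouse embryos from the 2-cell stage to the blastocyst. They were taken by gene symbol: every listed gene beginning with Ndufa, Ndufb, Ndufc, Ndufs, Ndufv, Uqcr, Cox4, Cox5, Cox6, Cox7, Cox8 or Atp5, together with Sdha, Sdhb, Sdhc and Sdhd, leaving out the Ndufaf assembly factors. The rule used no measured value and gave 85 of 23845 listed genes. Of these, 38 belong by name to complex I (NADH dehydrogenase), 4 to complex II (succinate dehydrogenase), 8 to complex III (the cytochrome bc1 complex), 18 to complex IV (cytochrome c oxidase) and 17 to complex V (ATP synthase). A few carry a family name without being plain subunits: Atp5s and Atp5sl are named Dmac2l and Dmac2 by RefSeq, Cox7a2l is known for joining complexes III and IV into supercomplexes, Ndufab1 is also the mitochondrial acyl carrier protein, and Ndufa4 is now often counted with complex IV. They lie on 19 chromosomes, with 10 genes on chromosome 7 and 3 on the X.

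Oxidative phosphorylation passes electrons from NADH and succinate along complexes I to IV to oxygen, and complex V uses the resulting proton gradient to make ATP. Most subunits are encoded in the nucleus and imported, while a small core is encoded by the mitochondrial genome. Mouse eggs carry a large store of mitochondria that is divided among the cleaving cells, and the blastocyst is known for a higher oxygen uptake than the cleavage stages. No gene of the mitochondrial genome is listed in the tables, so the 85 genes give the nuclear share of the enzymes only.

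Every embryo was of strain FVB. Eggs were fertilised by placing 1 sperm inside each with a pipette (intracytoplasmic sperm injection, ICSI), and the zygotes were cultured in KSOM medium. Sperm came from the caput epididymis (the upstream end of the duct in which sperm mature), the cauda epididymis (its downstream end, where sperm are stored) or the testis. Some zygotes of caput sperm were injected 3 h after ICSI with GFP RNA, EpiM small RNA, EpiM miRNA or EpiM tRF (fragments of transfer RNA). RNA of whole single embryos was sequenced by Smart-seq2, and the question of the series is whether small RNA gained in the epididymis matters to the embryo.

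Without injection there were 268 embryos of caput sperm, 415 of cauda sperm and 96 of testis sperm. With injection there were 26 embryos given GFP, 25 given EpiM, 52 given miRNA and 51 given tRF. By stage there were 44 2-cell embryos at 18 h after ICSI, 19 at 24 h and 49 at 28 h, 220 4-cell, 53 8-cell, 128 morula and 420 blastocyst embryos. They form 33 groups of 8 to 42 embryos, deposited as 12 tables. Where a stage has several tables, these are numbered as cohorts. The labels do not say whether embryos of a group came from separate males or cultures, so the p-values below measure the spread between embryos.

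The deposited values are TPM (transcript abundance scaled to a fixed library total), which allow for transcript length and are shares of a library. Read counts cannot be had from them and sequencing depth is unknown. The number of genes at 1 TPM or more ran from 4864 to 12629 by library (median 10627). In a comparison of each library with the group medians over 11919 genes other than the members, 8 libraries lay nearest a group of another stage or time: 4 in the 2-cell groups, 3 among the 8-cell embryos and 1 in blastocyst cohort 1 caput. Member counts and summed levels in the groups they belong to are given with and without them. Sperm marker transcripts summed to group medians of 0 to 10.9 TPM, and of the 7 genes on that list Prm2 alone had a median above 0 in the 18 h groups.

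Promoter sequences were examined first, since several factors are known to act on respiratory genes as a set. RefSeq promoters on GRCm38.p6, from 250 bases before to 50 bases after the start, were on hand for 70 of the 85 genes. The core site of nuclear respiratory factor 1 (NRF1), which reads GCGC, any base, then TGCGC, was sought on both strands, as were all letters below, and found in 17 of the 70, or 24.3%, against 5.19% of all 27025 genes with a promoter. CCGGAAG, the core of ETS and GABP sites, was found in 16 (22.9%, against 9.93% of all), and AAGATGG, the core of YY1 sites, in 12 (17.1%, against 7.28%). The SP1 letters GGGCGG were found in 29 (41.4%, against 38.2%), TATAAA in 7 (10%, against 15.7%) and the estrogen-related receptor letters TCAAGGTCA in 2 (2.86%, against 0.466%). The NRF1 and YY1 letters occurred together in 1 promoter, that of Ndufs6. A match describes the letters in the window and is not evidence of binding.

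The 200 bases before the start are shown for 6 members to let the letters be compared with the 2-cell results below, 5′ to 3′ on the strand of the gene. Capitals mark the NRF1 letters in the first 4 genes and the ETS letters in Cox6b1, and Cox6b2 holds none of either. The Sdhd bases also hold the ETS letters, read on the other strand as in Cox6b1 and left in lower case. Among genes with the NRF1 letters, Ndufa11 and Atp5k rose between 18 and 28 h and Ndufa8 and Sdhd fell. Ndufa11 lies at chr17:56717562-56717761 on the plus strand, Atp5k at chr5:108434400-108434599, Ndufa8 at chr2:36049339-36049538, Sdhd at chr9:50603850-50604049, Cox6b1 at chr7:30626115-30626314 and Cox6b2 at chr7:4753095-4753294, the last 5 on the minus strand.
Ndufa11: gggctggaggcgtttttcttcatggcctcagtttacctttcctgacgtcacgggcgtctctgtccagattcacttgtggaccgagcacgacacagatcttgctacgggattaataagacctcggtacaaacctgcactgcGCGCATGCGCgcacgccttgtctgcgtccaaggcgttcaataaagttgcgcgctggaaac
Atp5k: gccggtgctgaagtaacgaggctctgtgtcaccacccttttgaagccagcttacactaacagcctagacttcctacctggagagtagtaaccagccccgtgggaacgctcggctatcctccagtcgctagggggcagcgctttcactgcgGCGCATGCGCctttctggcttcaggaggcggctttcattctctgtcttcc
Ndufa8: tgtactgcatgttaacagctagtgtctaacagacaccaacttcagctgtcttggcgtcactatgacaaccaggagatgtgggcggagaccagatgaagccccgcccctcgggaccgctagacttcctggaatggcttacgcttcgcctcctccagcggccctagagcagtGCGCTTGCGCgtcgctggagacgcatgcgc
Sdhd: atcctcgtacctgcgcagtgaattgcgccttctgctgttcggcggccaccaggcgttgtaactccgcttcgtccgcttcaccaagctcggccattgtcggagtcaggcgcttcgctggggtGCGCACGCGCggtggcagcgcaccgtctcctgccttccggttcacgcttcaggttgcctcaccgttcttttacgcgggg
Cox6b1: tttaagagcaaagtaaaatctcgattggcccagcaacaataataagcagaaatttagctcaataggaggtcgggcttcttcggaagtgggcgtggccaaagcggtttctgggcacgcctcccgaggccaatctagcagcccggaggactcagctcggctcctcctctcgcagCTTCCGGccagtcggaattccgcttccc
Cox6b2: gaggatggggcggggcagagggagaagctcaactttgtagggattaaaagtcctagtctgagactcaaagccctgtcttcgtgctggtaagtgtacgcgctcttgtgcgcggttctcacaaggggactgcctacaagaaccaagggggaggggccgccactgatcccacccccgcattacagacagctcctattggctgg

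The summed level of the 85 genes was under 1% of the library in 2-cell embryos and several percent in blastocysts. The stage level given here is the median over the groups of a stage of each group's median embryo. It was 6889.6 TPM at 18 h (embryos from 5069.8 to 10320.3), 9075 TPM at 24 h and 9419 TPM at 28 h (5280.5 to 16311, or from 5728 without the libraries nearest another time), which are 0.689%, 0.9075% and 0.942% of the library. It was 21615 TPM in 4-cell embryos (15469.9 to 29855) and 22709.9 TPM in 8-cell embryos. It reached 31631 TPM in morulae (25642 to 59910.0) and 59464 TPM, or 5.95% of the library, in blastocysts (33411 to 132874). The blastocyst level was 8.63 times that at 18 h and 6.31 times that at 28 h.

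Group medians of a stage did not overlap those of the next, apart from 24 h and 28 h and apart from the 4-cell and 8-cell stages. The 4-cell groups lay between 21179 and 23577 TPM, the morula groups between 31111 and 34405 TPM and the blastocyst groups between 47443 and 74304 TPM. Apart from the times of the 2-cell table, each stage lies in tables of its own, so stage and table cannot be told apart and the difference is a description without a test. In whole embryos, fewer cells of a type and less RNA per cell cannot be told apart either. The 8-cell stage holds the embryos farthest from their group, with sums of 5264, 65433 and 185153 TPM against group medians of 22411 (cauda) and 23009 (caput). These 3 are the 8-cell libraries that lay nearest another stage, and without them the 8-cell embryos ranged from 16871 to 29542 TPM. The first of them, a cauda embryo, had 4835 TPM of maternal marker transcripts against a group median of 174 TPM.

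**Figure D1:**
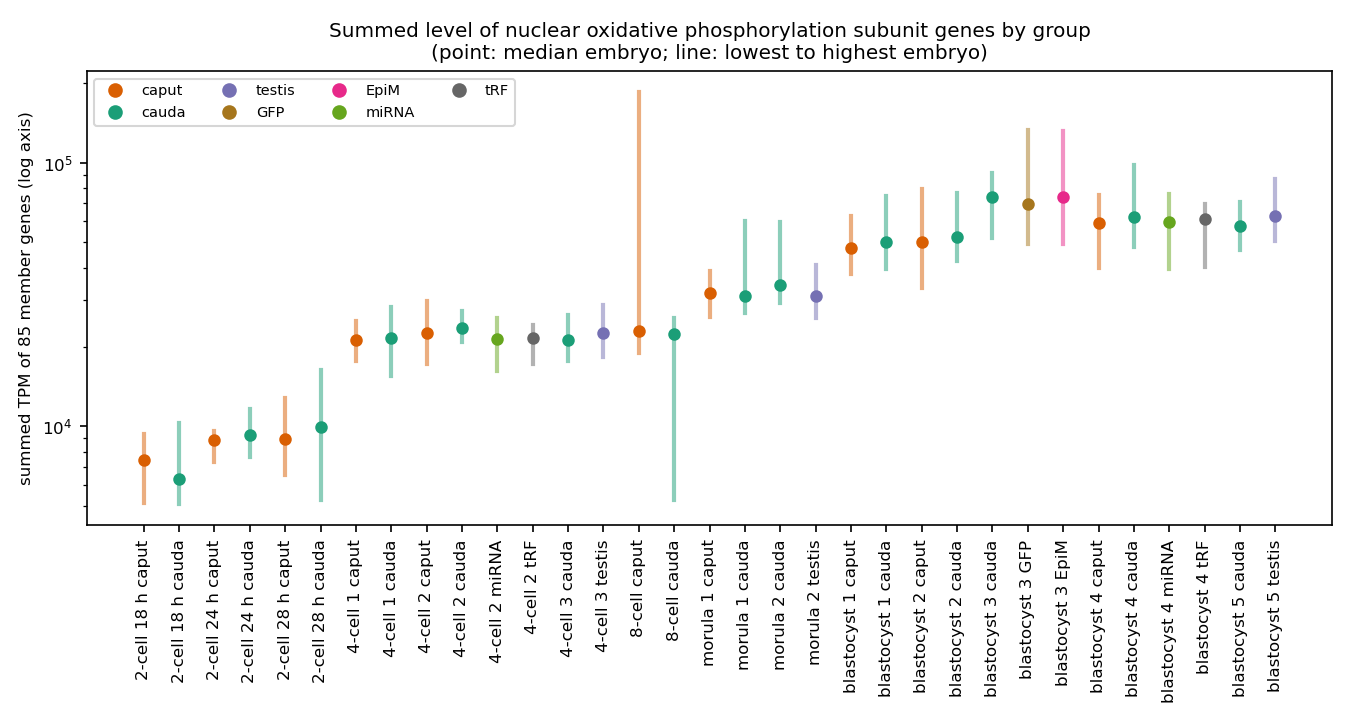
Summed TPM of the 85 genes (log axis) in each of 33 groups, coloured by sperm source or injected RNA; points are median embryos and lines run from the lowest to the highest embryo. Group medians run up to 9907 TPM in the 2-cell groups and from 47443 TPM in the blastocyst groups, and the long lines among 8-cell embryos are the libraries nearest another stage.

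Most members had this difference, and their levels lay closer together at later stages. The median member stood at 28.3 TPM at 18 h, 39.1 TPM at 28 h, 197 TPM in 4-cell embryos, 286 TPM in morulae and 488.5 TPM in blastocysts. The ratio of the upper to the lower quartile of members was 10.0 at 18 h, 6.17 at 28 h and 4.06 in 4-cell embryos. Members reaching 100 TPM numbered 20 at 18 h, 21 at 28 h, 62 in 4-cell embryos and 74 in blastocysts. The highest stage level was in the blastocyst for 73 members. It was in the morula for Ndufs8, Cox7a1 and Cox7b2, in 4-cell embryos for Ndufb11, Atp5s and Cox4i2, at 28 h for Cox6b2 and at 18 h for Cox6a2, Cox8c and Atp5sl. Cox8b and Ndufa4l2 had a stage level of 0 throughout.

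Counting members whose group medians at a stage all lay above those of the stage before, the 28 h to 4-cell step had 73 of 83 above and 4 below. Over all genes with a level in either stage, 33.9% lay above and 47.2% below in that step. From 4-cell to 8-cell embryos 10 of 82 members lay above and 11 below, against 20.8% and 24.2% of genes. From 8-cell embryos to morulae the members gave 61 above and 5 below of 81 (34.5% and 37.5% of genes), and from morulae to blastocysts 57 above and 2 below of 81 (15.5% and 16.7%). From 28 h to the blastocyst 77 of 82 members lay above and 1 below, against 30.6% and 44.7% of genes. The median member changed by 1.94, 0.00, 0.52 and 0.87 on the log2(TPM + 1) scale in the 4 single steps, and the median of all genes by -0.38, -0.04, -0.01 and 0.

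**Figure D2:**
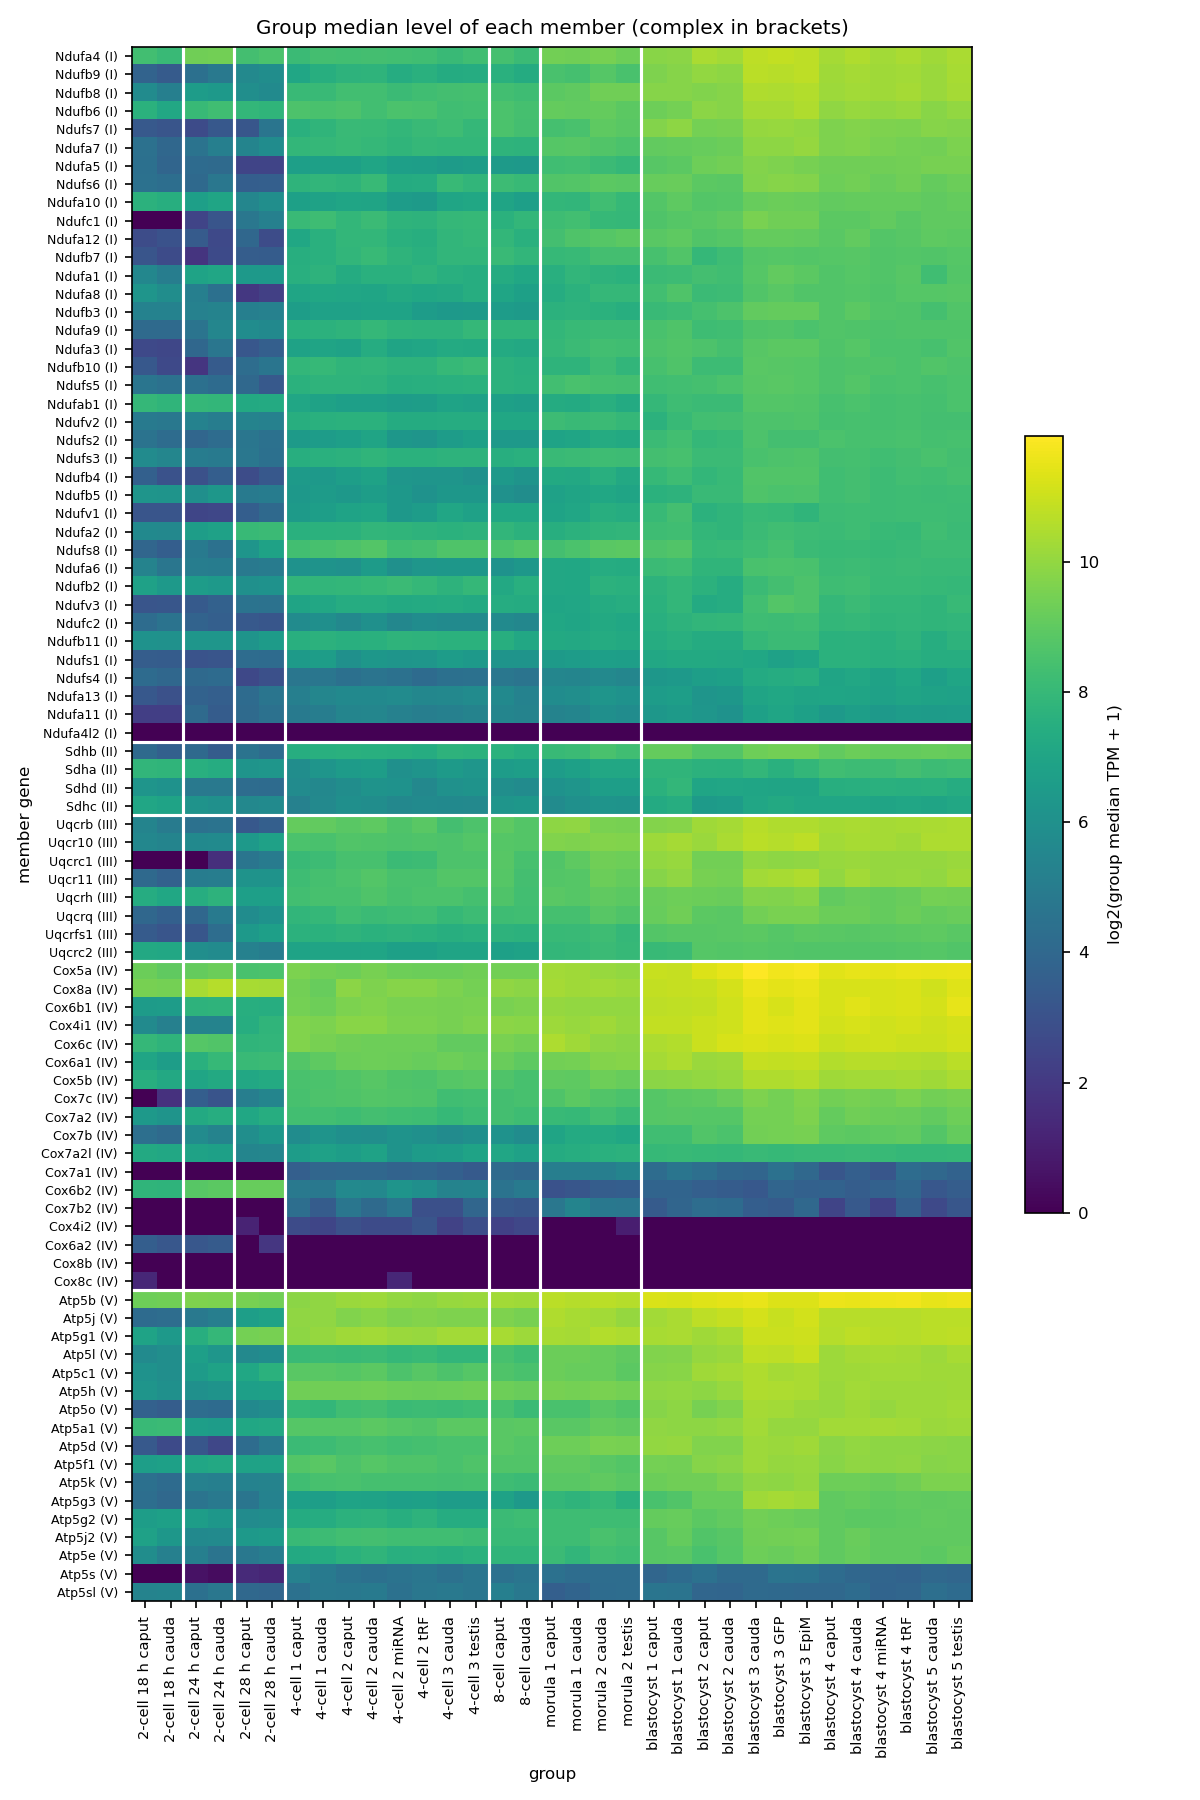
Group median level of each member on the log2(TPM + 1) scale (colour), with members in rows ordered by complex and by blastocyst level and the 33 groups in columns ordered by stage. Most members brighten between the 2-cell groups at 28 h and the 4-cell groups, and Cox6b2 dims there.

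By complex, the summed level of complex III differed most between 28 h and the blastocyst, at 530.3 and 6918 TPM, a ratio of 13.0. The ratio was 7.73 for complex I (17267 TPM in blastocysts), 6.96 for complex II (1179 TPM), 6.74 for complex V (17132 TPM) and 4.49 for complex IV (16832 TPM). Complex II alone was lower at 28 h than at 18 h, with 446 TPM at 18 h, 299.6 TPM at 24 h, 169 TPM at 28 h and 378 TPM in 4-cell embryos. Its share of the members' sum went from 6.58% at 18 h to 1.81% at 28 h and was 1.91% in blastocysts. The share of complex IV was highest at 24 h, at 43.4%, and was 25.2% in 4-cell embryos. These ratios are differences of stage levels with no test, for the reason given above.

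In complex I the highest blastocyst levels were those of Ndufa4, at 1353 TPM, and Ndufb9, an accessory subunit of the membrane arm, at 1226 TPM. Ndufa4 stood at 296 TPM at 18 h, 661.5 TPM at 24 h, 351 TPM at 28 h and 315 TPM in 4-cell embryos, and 662 TPM in morulae, so its level was close to flat from 28 h to the 8-cell stage (312 TPM). Ndufb9 went from 11.5 TPM at 18 h to 52.4 TPM at 28 h and 173 TPM in 4-cell embryos. In complex II Sdhb, the iron-sulfur subunit, had 14.3 TPM at 18 h and 559 TPM in blastocysts. Sdha, the flavoprotein that binds succinate, had 228 TPM at 18 h, 74.6 TPM at 28 h and 239.7 TPM in blastocysts. Sdha was therefore the higher of the pair in 2-cell embryos and Sdhb in every later stage.

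In complex III Uqcrb, a small subunit of the bc1 complex, reached 1349 TPM in blastocysts and Uqcr10, another small subunit, 1318 TPM. In complex IV the highest were Cox5a, which went from 569 TPM at 18 h and 369 TPM at 28 h to 2870.0 TPM in blastocysts, and Cox8a, at 2402 TPM. In complex V the highest was Atp5b, the catalytic beta subunit, at 648 TPM at 18 h, 702 TPM at 28 h, 1054 TPM in 4-cell embryos and 2863 TPM in blastocysts. Atp5j, the coupling factor of the stalk, went from 17.5 TPM at 18 h to 109.9 TPM at 28 h, 840.1 TPM in 4-cell embryos and 1657.0 TPM in blastocysts. At 18 h Atp5b was thus far above Atp5j, a subunit of the same enzyme, and both were below their later levels.

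The largest positive differences from 28 h to the blastocyst, among members reaching 5 TPM in either, were those of Uqcrb (10.0 to 1349 TPM, a log2 change of 6.94), Ndufa5 (4.50 to 666 TPM, 6.92), Ndufa8 (3.27 to 415 TPM, 6.61) and Ndufs6 (11.2 to 605.8 TPM, 5.64). Ndufa5, Ndufa8 and Ndufs6 are accessory subunits of complex I. All 4 had a lower stage level at 28 h than at 18 h: Ndufa8 had 64.5 TPM at 18 h and Uqcrb 35.7 TPM. Over single embryos, Uqcrb ran from 0 to 49.6 TPM at 28 h, with 10 of 49 embryos at 0, from 146 to 919 TPM in 4-cell embryos and from 519 to 4169 TPM in blastocysts, so neither of these later stages overlapped the embryos at 28 h. Ndufa8 ran from 0 to 50.1 TPM at 28 h, with 21 of 49 embryos at 0, and from 119 to 1704 TPM in blastocysts. Cox6b2, with 571 and 11.9 TPM (-5.47), was the member that lay below. Ndufa2 (272.7 to 285 TPM, 0.06), Atp5sl (14.8 to 15.7 TPM, 0.08) and Cox8a (1311 to 2402 TPM, 0.87) had the smallest positive differences.

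Within the 2-cell stage both times lie in one table and share 3 sessions (a number in the sample descriptions whose meaning is not stated), so time could be tested with a session term. Between 18 and 28 h 39 members rose and 27 fell, of 83 tested (limma on log2(TPM + 1), Benjamini-Hochberg adjusted p under 0.05). Much of the transcriptome changed over these hours: 75.7% of 14969 genes passed, 37.5% higher and 38.2% lower. The share of members that passed, 79.5%, was close to that background, while the median change of the members was 0.38 and that of all genes -0.04. By complex, 16 rose and 13 fell of 38 in complex I, 5 rose and 3 fell of 8 in complex III, 10 rose and 4 fell of 16 in complex IV, and 8 rose and 4 fell of 17 in complex V. In complex II 3 of 4 fell and Sdhb did not pass (0.17, SE 0.25).

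**Figure D3:**
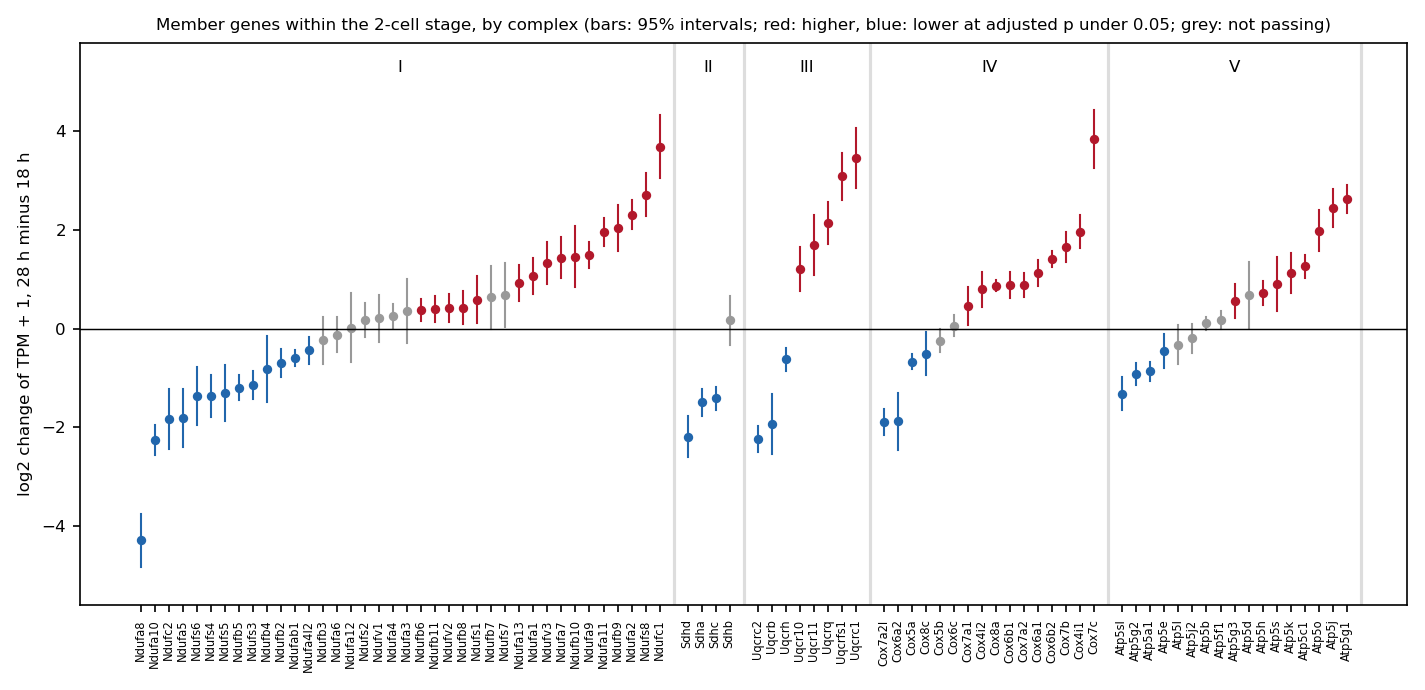
Change of each tested member between 18 and 28 h (log2 of TPM + 1, 28 h minus 18 h), by complex, with bars for 95% intervals. Members of complexes I, III, IV and V lie on both sides of 0, from -4.29 (Ndufa8) to 3.84 (Cox7c), and 3 of 4 complex II genes lie below it.

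In complex I, Ndufc1, an accessory subunit, had 0 TPM in the lowest and the median embryo and 14.5 TPM in the highest at 18 h, and 0, 34.3 and 505 TPM at 28 h. It rose by 3.69 on the log2 scale (SE 0.32, limma adjusted p = 4.48e-19), and the embryos of the 2 times overlapped only in their lower part. Ndufs8, a core iron-sulfur subunit, had 0, 13.0 and 50.6 TPM at 18 h and 7.39, 96.6 and 275 TPM at 28 h. It rose by 2.71 (SE 0.22, adjusted p = 1.97e-20 by limma). Ndufa2, an accessory subunit, had 17.2, 46.4 and 165 TPM against 17.4, 270.7 and 621 TPM and rose by 2.31. Ndufb9 rose by 2.04, from a median of 11.1 to 51.1 TPM.

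Ndufa8 was the member that fell most. It had 14.7, 61.5 and 233 TPM (lowest, median and highest embryo) at 18 h and 0, 3.16 and 50.1 TPM at 28 h, a change of -4.29 (SE 0.27, limma adjusted p = 2.5e-27). Ndufa10, an accessory subunit, had 114, 196 and 615 TPM at 18 h and 4.45, 45.9 and 195 TPM at 28 h, a change of -2.26 (SE 0.15, limma adjusted p = 1.06e-25). The 2 times overlapped in both genes. Ndufc2 changed by -1.83, from a median of 18.3 to 8.40 TPM, and Ndufa5 by -1.81, from 18.4 to 4.54 TPM. Ndufc1 and Ndufc2, which share a family name, thus moved in opposite directions.

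In complex II, Sdhd, a membrane anchor, had 37.98, 71.2 and 175 TPM (lowest, median and highest embryo) at 18 h and 0, 17.8 and 55.0 TPM at 28 h. It fell by 2.19 on the log2 scale (SE 0.21, limma adjusted p = 2e-16). Sdha had 36.4, 227 and 298 TPM against 11.1, 74.1 and 177 TPM and fell by 1.4965 on the log2 scale (SE 0.13, limma adjusted p = 4.14e-18). Sdhc, the other anchor, fell by 1.41, from a median of 123 to 49.1 TPM. Sdhb, by contrast, had 2.89, 14.2 and 57.9 TPM at 18 h and 0, 19.2 and 288 TPM at 28 h, which overlap almost wholly.

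Complex III held large changes in both directions. Uqcrc1, a core protein, had 0, 0 and 8.91 TPM at 18 h and 0, 28.6 and 94.99 TPM at 28 h and rose by 3.46 (SE 0.31, limma adjusted p = 1.67e-18). Its partner Uqcrc2 had 71.0, 145 and 275.5 TPM at 18 h and 4.68, 32.5 and 80.9 TPM at 28 h and fell by 2.24 (SE 0.13, limma adjusted p = 3.47e-29). The 2 core proteins, which sit together in the enzyme, therefore went from a median of 0 against 145 TPM to 28.6 against 32.5 TPM. Uqcrfs1, the Rieske iron-sulfur protein, had 0, 7.89 and 32.1 TPM at 18 h and 2.39, 105 and 254 TPM at 28 h and rose by 3.09. Uqcrq, a small subunit, rose by 2.14 (median 13.2 to 62.3 TPM), and Uqcrb fell by 1.94 (34.4 to 10.3 TPM).

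In complex IV, Cox7c, a small subunit, had 0, 0 and 7.59 TPM at 18 h and 0, 38.6 and 421.9 TPM at 28 h. It rose by 3.84 (SE 0.30, limma adjusted p = 1.31e-21), the largest rise of a member. Cox7a2l had 81.5, 148 and 244 TPM at 18 h and 5.32, 42.1 and 91.9 TPM at 28 h and fell by 1.89. Cox6a2, a muscle isoform, fell by 1.88 from a median of 9.30 to 1.67 TPM, although the highest embryo at 28 h had 274 TPM. In complex V, Atp5g1, which encodes the c subunit of the proton-driven ring, had 36.4, 103 and 271 TPM at 18 h and 37.3, 708 and 2336 TPM at 28 h. It rose by 2.62 (SE 0.14, limma adjusted p = 5.15e-32). Atp5j rose by 2.44, from a median of 17.4 to 113 TPM.

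All 20 of these changes had the same sign in each of the 3 sessions, and the embryos of both times overlapped in all 20. All 20 also passed under each of 9 alternatives, among them leaving out the libraries nearest another time. The other 29 members that rose did so by 0.38 to 1.99 and the other 17 that fell by -0.44 to -1.41. Some of these lie at the floor. Cox7a1, which rose, and Cox8c and Ndufa4l2, which fell, had a median of 0 TPM at both times. Cox4i2, which rose, had medians of 0 and 0.93 TPM. The 17 that did not pass changed by -0.32 to 0.68, among them Atp5b (0.10), Ndufs7 (0.68) and Ndufa4 (0.26). The 24 h embryos, which were not in the test and come from 1 session, had a median strictly between those at 18 and 28 h for 27 of the 39 members that rose and 17 of the 27 that fell. Atp5g1, for example, had 103, 220 and 708 TPM at the 3 times and Ndufa8 61.5, 32.2 and 3.16 TPM. How many of all called genes lay between was not tallied, so the counts of 27 and 17 have no background beside them. Leaving out the libraries nearest another time gave 71 members in place of 66, the same 66 included. The share of all genes called without these libraries was not tallied. Over the same hours the 7 maternal marker transcripts went from group medians of 7543 and 7899.8 TPM to 5079.99 and 5424 TPM, with 5 lower and 2 higher, and the 8 transcripts of the 2-cell burst from 1710.5 and 2070.3 TPM to 3094 and 3171 TPM, with 5 higher and 3 lower. Both tested markers of cumulus cells, which surround the egg, were lower, with summed group medians of at most 13.7 TPM. Their part in the members' changes was not tested.

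Members with and without each set of promoter letters moved in both directions, apart from TATAAA, with 1 higher and 0 lower of 5 tested. Of 17 members with the NRF1 letters, 8 rose and 8 fell, with a median change of -0.12. Of 51 tested members whose promoter lacked them, 25 rose and 12 fell, with a median of 0.42. Of 16 with the ETS letters 9 rose and 4 fell (median 0.68), against 24 and 16 of 52 without (0.38). Of 28 with the SP1 letters 11 rose and 11 fell (0.14), against 22 and 9 of 40 without (0.68). Of 12 with the YY1 letters 5 rose and 3 fell (0.39), against 28 and 17 of 56 without (0.41). Of the 5 with TATAAA the median was 0.63, against 0.40 for 63 without, of which 32 rose and 20 fell. Of 2 with the estrogen-related receptor letters 1 rose and 1 fell, against 32 and 19 of 66 without. Ndufa11 rose by 1.96, from a median of 3.60 to 17.5 TPM, and Atp5k, subunit e of complex V, by 1.13, from 18.2 to 38.9 TPM, and both hold the same 10 NRF1 letters as printed above. These counts are descriptions of a search over 6 sets of letters and carry no test.

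Genes that act on or beside these enzymes were read from lists. Over all 14969 genes tested, 37.5% rose and 38.2% fell, which is the background for the counts below. Of 13 tested regulators of respiratory genes 11 rose and 1 fell between 18 and 28 h, with a median change of 0.99 against -0.04 for all genes. Gabpa, the DNA-binding part of GABP, rose by 5.91 and Yy1 by 4.19. Of 29 mitochondrial import genes 17 rose and 9 fell (median 0.61), with Timm10, a chaperone of the intermembrane space, up by 5.35. Of 44 assembly factors 18 rose and 18 fell (-0.08), with Uqcc3, an assembly factor of complex III, up by 4.28. Of 18 genes of electron carriers 5 rose and 10 fell (-0.60), of 21 tricarboxylic acid cycle genes 9 rose and 10 fell (-0.22), and of 16 genes for mitochondrial genome upkeep and transcription 5 rose and 7 fell (-0.19). Among these, Coq4, needed for ubiquinone synthesis, rose by 3.60 and Suclg1, a subunit of succinyl-CoA ligase, fell by 3.55.

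Several subunits come as alternative genes whose products take the same place in the enzyme, and in the Cox6b pair the higher gene was not the same at every stage. Cox6b2, known as the testis isoform, had a stage level of 219.8 TPM at 18 h, 475 TPM at 24 h and 571 TPM at 28 h, then 43.9 TPM in 4-cell embryos, 26.1 TPM in 8-cell embryos, 9.24 TPM in morulae and 11.9 TPM in blastocysts. Cox6b1, the common isoform, had 94.0, 215, 178, 740.0, 764, 1028 and 2395 TPM at the same stages. Cox6b2 therefore made up a median of 70.5% of the pair at 18 h, 77.5% at 28 h, 5.26% in 4-cell embryos and 0.488% in blastocysts. Its embryos ran from 258 to 924 TPM at 28 h and from 0 to 181 TPM in the 4-cell stage and did not overlap. Both genes rose from 18 to 28 h, Cox6b2 by 1.41 (SE 0.08, limma adjusted p = 8.34e-30) and Cox6b1 by 0.88 (SE 0.13, limma adjusted p = 3.1e-09).

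**Figure D4:**
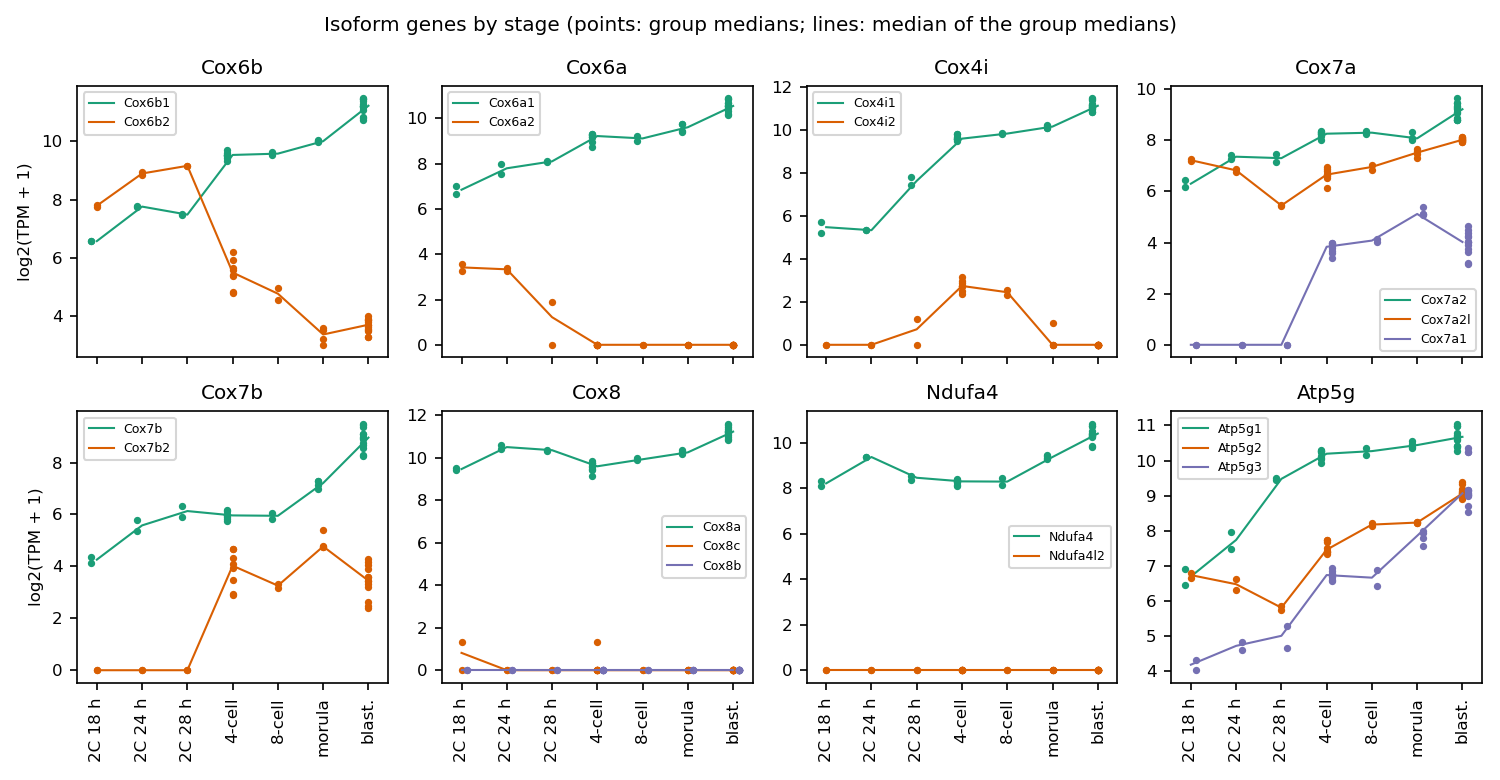
Levels of alternative genes on the log2(TPM + 1) scale by stage, with points for group medians and lines for stage levels. Cox6b2 lies above Cox6b1 in all 2-cell groups and below it in all later groups, Cox7a1 and Cox7b2 leave 0 at the 4-cell stage, and Cox4i2 is above 0 mainly in 4-cell and 8-cell groups.

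The other complex IV alternatives stayed low in TPM, apart from Cox7a2l, which is drawn with the Cox7a genes. Cox7a2l had a stage level of 148 TPM at 18 h, against 77.9 TPM for Cox7a2. At 24 h the levels were 112 and 163 TPM. Cox6a2, an isoform of heart and skeletal muscle, had a stage level of 9.70 TPM at 18 h and 0 from the 4-cell stage on, against 114 and 595 TPM for Cox6a1 at 18 h and in 4-cell embryos. Cox4i2, known as the lung isoform, reached a median of 5.60 TPM over 4-cell embryos, where 199 of 220 embryos had at least 1 TPM, and 0 over blastocysts, where 10 of 420 had. Cox4i1 stood at 795 TPM in those 4-cell embryos. Cox7a1, an isoform of muscle, had a median of 0 at all 2-cell times, 12.7 TPM in 4-cell embryos and 34.6 TPM in morulae, where all 128 embryos had at least 1 TPM, and 15.1 TPM in blastocysts. Its share of the sum with Cox7a2 was 11.1% in morulae. Cox7b2 was at 0 in all 44 embryos at 18 h and had a median of 14.7 TPM in 4-cell embryos, or 18.6% of the Cox7b pair. It made up a median of 17.5% of the pair in morulae and 1.99% in blastocysts. Cox8b, an alternative to Cox8a, was listed at 0 in every embryo, and Cox8c, a testis isoform, reached 1 TPM in 65 of 220 4-cell and 12 of 420 blastocyst embryos. Ndufa4l2 reached 1 TPM in 10 of 44 embryos at 18 h and in 3 of 420 blastocysts.

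The Atp5g genes encode the same mature c subunit behind different import signals. At 18 h Atp5g1 and Atp5g2 stood level, with medians over embryos of 103 and 109 TPM, or 44.6% and 45.8% of the Atp5g sum, and Atp5g3 had 18.5 TPM. At 28 h Atp5g1 had risen to 708 TPM, or 88.6% of the sum, while Atp5g2 had fallen to 54.0 TPM (a change of -0.92, SE 0.11, limma adjusted p = 4.27e-12). The share of Atp5g1 was 79.7% in 4-cell embryos, 72.5% in morulae and 57.9% in blastocysts. In blastocysts Atp5g1 had 1589.7 TPM, Atp5g2 536 TPM and Atp5g3 573 TPM. The sequences of these genes and of their processed pseudogenes are alike, as are those of Cox7c, Uqcrb and several other small subunits, so the split between copies depends on how the authors assigned reads and is uncertain.

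Members also differed in how closely they followed the rest from embryo to embryo. Within groups, the rank correlation of a member with the mean of the others had a median of 0.44 at 18 h, 0.15 at 24 h, 0.40 at 28 h, 0.30 in 4-cell embryos, 0.48 in morulae and 0.60 in blastocysts. By complex it was 0.50 for complex I, 0.40 for II, 0.39 for III, 0.33 for IV and 0.39 for V. It was highest for Cox7a2 (0.68), Uqcr11 (0.68) and Atp5e (0.67) and lowest for Cox8a (0.08), Atp5b (0.08) and Atp5s (0.09). The genes share a library in each point and many are short: the median transcript length of the members is 758 bases, against 2310 bases for all genes with a length. Sessions were pooled within a group. The 24 h groups hold 8 and 11 embryos of 1 session, and each group at 18 and 28 h holds 3 sessions. The part of sessions and group size in these values was not tested. The values are descriptions and carry no test.

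Sperm source and injected RNA, the subject of the series, gave few member calls. Over 22 comparisons, each within a table, 8 of 1780 tests of a member passed, all with a lower level in the first-named group, or 0.449% of tests. Over all genes 0.723% of 263198 tests passed. The 8 calls fell in 3 comparisons. The median change of the 80 to 82 members tested in a comparison lay between -0.14 and 0.19, and the median SE of a member between 0.08 and 0.37. The 95% interval lay within a 2-fold change either way for 699 of 808 tests of caput against cauda, 237 of 243 of testis against cauda and 697 of 729 among injected embryos. It lay within a 1.41-fold change either way in 487, 223 and 608 of these tests. The comparisons that share a group, such as miRNA and tRF against the same caput embryos, are not independent.

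**Figure D5:**
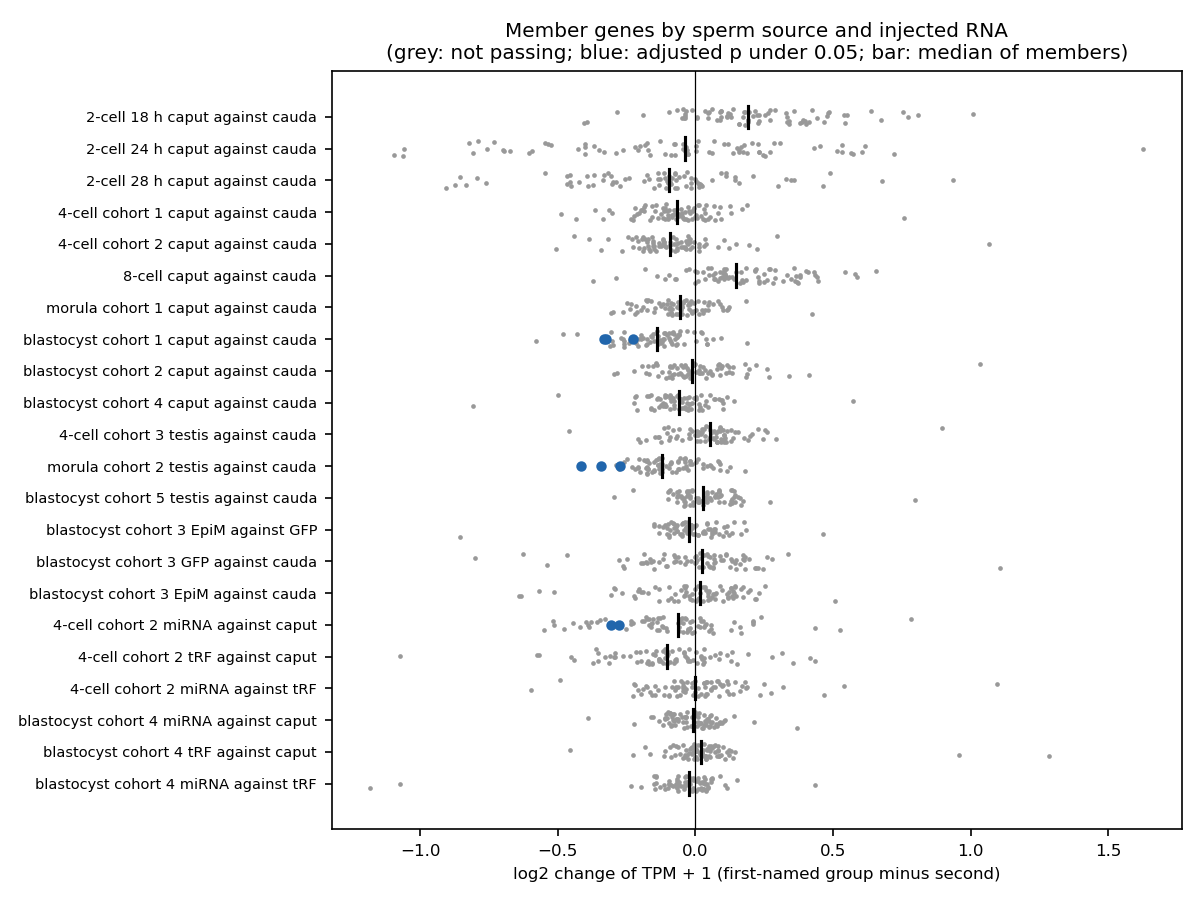
Change of each tested member (log2 of TPM + 1, first-named group minus second) in 22 comparisons by sperm source and injected RNA, with bars for the median member. Member medians lie between -0.14 and 0.19, and the 8 changes that passed, in blue, are all below 0 and lie in 3 comparisons.

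In blastocyst cohort 1, 3 complex I genes were lower in 35 caput than in 42 cauda embryos. Ndufv2, a core iron-sulfur subunit, had 102, 206 and 360 TPM (lowest, median and highest embryo) in caput and 149, 261 and 425 TPM in cauda embryos, a change of -0.33 (SE 0.09, limma adjusted p = 0.0307). Ndufs7, another core subunit, had 555, 836 and 1313 TPM against 591, 953 and 1529.98 TPM, a change of -0.23 (SE 0.06, limma adjusted p = 0.0334). Ndufab1 had 135, 246 and 440 TPM against 175, 304.5 and 602 TPM, a change of -0.32 (SE 0.09, limma adjusted p = 0.0463). The groups overlapped in all 3 genes and the sign was the same in 5 of 6 sessions that hold both groups. These are 3 of 80 members, with 2.12% of genes called in either direction and 0.73% called lower. The median member changed by -0.14 and 9 of 80 had a positive change, while the median gene changed by 0.01.

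Without caput replicate 4, the library of blastocyst cohort 1 that lay nearest a morula group, 7 members were lower: these 3 and Ndufa8, Ndufb7, Ndufv1 and Atp5j. The share of all genes called without this library was not tallied, so these 7 have no background beside them. With 1 mean per session and group none passed (adjusted p of Ndufv2 0.589 by limma). The 7 trophectoderm markers summed to 3258 to 14539 TPM in caput embryos, with a median of 7269, and 3819.9 to 17305 TPM in cauda embryos, with a median of 7981. None of the 6 tested passed, and Elf5 was at a median of 0 in both. Of 4 tested primitive endoderm markers Sox17 was lower, by -1.46, with medians of 1.21 TPM in caput and 9.32 TPM in cauda embryos. Gata6 had the higher median in caput embryos (48.5 against 37.3 TPM). Pdgfra (9.70 against 13.7 TPM) and Gata4 (0.66 against 0.82 TPM) had the lower. Their part in the members' changes was not tested. In cohorts 2 and 4 no member passed in the same contrast. In cohort 2 Cox6c came nearest, at -0.30 (SE 0.07, limma adjusted p = 0.0512), with 1424 to 4237 TPM in caput and 1486 to 4730.4 TPM in cauda embryos. In cohort 4 Ndufs4 did, at -0.22 (limma adjusted p = 0.261). The share of genes called was 0.28% in cohort 2 and 1.84% in cohort 4.

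In morula cohort 2, 3 accessory subunits of the complex I membrane arm were lower in 34 testis than in 34 cauda embryos. Ndufb10 had 139, 234 and 433 TPM in testis and 154, 293 and 1054 TPM in cauda embryos, a change of -0.34 (SE 0.09, limma adjusted p = 0.0385). Ndufb4 had 66.5, 149 and 248 TPM against 121, 182 and 769.6 TPM, a change of -0.42 (SE 0.11, limma adjusted p = 0.0389). Ndufb9 had 239, 364 and 653 TPM against 278, 439 and 648 TPM, a change of -0.28 (SE 0.07, limma adjusted p = 0.0403). The groups overlapped and the sign was the same in 4 of 4 sessions. Of all genes 1.58% were called and 0.45% called lower. The median member changed by -0.12, with 15 of 81 positive, against 0.04 for the median gene.

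The cauda group of that cohort holds the library with the fewest genes at 1 TPM of the series, 4864. Over the 3 testis comparisons together, 6 members passed with libraries of few genes left out, and none with a pseudocount of 0.1. How many of all genes passed under these settings was not tallied. The 7 trophectoderm markers summed to a median of 698 TPM in testis (185 to 1276) and 979.8 TPM in cauda embryos (25.9 to 2462), and none of the 6 tested passed. Their part in the members' changes was not tested. No member passed in 4-cell cohort 3, where Ndufb2 came nearest at 0.26 (limma adjusted p = 0.582, 0.0174% of genes called), nor in blastocyst cohort 5, where Cox7b had 0.27 (adjusted p = 0.994 by limma, 0% of genes called).

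Among injected embryos, 2 members passed in 4-cell cohort 2, where 22 embryos injected with miRNA were set against 23 caput embryos without injection. Ndufs8 had 216, 309.6 and 452 TPM after miRNA and 202, 389 and 547 TPM without, a change of -0.31 (SE 0.08, limma adjusted p = 0.0273), with the same sign in 4 of 4 sessions. Cox4i1, the common isoform of subunit 4 of the oxidase, had 520.2, 766 and 1254 TPM against 660.5, 908 and 1214 TPM, a change of -0.28 (SE 0.08, limma adjusted p = 0.0445), with the same sign in 3 of 4 sessions. The embryos overlapped in both genes. Of all genes 1.26% were called and 1.08% called lower, so 2 of 82 members is near the background. Neither passed with 1 mean per session and group (limma adjusted p 0.523 for Ndufs8 and 0.689 for Cox4i1), and over 9 alternatives Ndufs8 passed in 8 and Cox4i1 in 5. The member median was -0.06 and that of all genes -0.04. The 7 trophectoderm markers summed to medians of 142 and 167 TPM and none of 5 tested passed. Of 3 tested primitive endoderm markers Gata6 was lower, by -1.48 (medians of 17.4 TPM after miRNA and 37.0 TPM without). Gata4, the highest marker of that list, had medians of 123 and 126 TPM. Their part was not tested.

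The tRF embryos of the same cohort were set against the same caput embryos, where 0.00861% of genes and no member passed. Cox4i1 came nearest there too, at -0.31 (SE 0.08, limma adjusted p = 0.13), with 535, 765.0 and 1004 TPM after tRF. Between miRNA and tRF embryos Atp5c1, the gamma subunit of ATP synthase, came nearest, at -0.23 (limma adjusted p = 0.153, 0.822% of genes called). In blastocyst cohort 4 no member passed after miRNA against caput, where Atp5j had -0.16 (limma adjusted p = 0.401) and 3.05% of genes passed. None passed after tRF, where Cox7b2 had 1.29 (limma adjusted p = 0.649) and 0% of genes passed, nor between miRNA and tRF, where Cox7a1 had -1.18 (limma adjusted p = 0.224) and 1.48% passed. Cox7a1 and Cox7b2 were low in all these embryos, with medians of 4.28 to 17.4 TPM.

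In blastocyst cohort 3, EpiM embryos were set against embryos injected with GFP RNA, and both against cauda embryos without injection. No member passed in any of these. Against GFP, Cox6b2 had a change of -0.85 (SE 0.46, limma adjusted p = 0.9997), with 0.466% of genes called. Between GFP and cauda embryos Cox5a came nearest, with 1690.3, 3346 and 5364 TPM against 2627, 3934.5 and 5446 TPM, a change of -0.28 (SE 0.08, limma adjusted p = 0.0811), and 0.455% of genes were called. Between EpiM and cauda embryos Atp5g2 had -0.22 (limma adjusted p = 0.398), with 0% of genes called. The median member changed by -0.02, 0.02 and 0.02 in the 3 comparisons.

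At the earlier stages no member passed between caput and cauda embryos. Of all genes 45.1%, 44.4% and 64.0% had a positive change at 18, 24 and 28 h, with medians of -0.03, -0.04 and 0.09. At 18 h 67 of 81 members had a positive change, with a median of 0.19, and Atp5e had the smallest p (0.67, SE 0.25, limma adjusted p = 1), with 0.00775% of genes called. At 28 h 23 of 80 had a positive change, with a median of -0.10. Without the libraries nearest another time it was 25 of 81 and -0.12, and under median-of-ratios scaling 13 and -0.21. Ndufs3 had 0.49 (limma adjusted p = 0.295), with 0.0683% of genes called. The difference between these 2 effects was tested in the same fit and passed for 0 of 83 members and 0 of 14969 genes, with 11 members and 1313 genes at an unadjusted p under 0.05 (limma). At 24 h no gene passed, and 36 of 81 members had a positive change (median -0.04), or 35 (-0.07) without the library nearest another time. Ndufa8 had 1.63 (SE 0.63, limma adjusted p = 0.9999), from a median of 20.3 TPM in 8 cauda to 35.0 TPM in 11 caput embryos.

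In 8-cell embryos 69 of 81 members had a positive change, with a median of 0.15, and 0% of genes passed. Of all genes 55.6% had a positive change there, with a median of 0.04. The 28 caput embryos lie in 6 sessions and the 25 cauda embryos in 3 of these. With the session term, only the 3 sessions that hold both groups inform the change. Without the 3 libraries nearest another stage the count was 57 of 81 and the median 0.05. The caput libraries among these are each alone in their session, so this shift came from the cauda library. Ndufa4 came nearest to passing there (0.38, limma adjusted p = 0.973). In 4-cell cohort 1 Cox7b had -0.49 (SE 0.14, limma adjusted p = 0.067), from a median of 71.2 TPM in cauda to 55.8 TPM in caput embryos, with 1.12% of genes called. In 4-cell cohort 2 Ndufs1, a core subunit of complex I, had -0.44 (limma adjusted p = 0.162), with 0.573% of genes called. In morula cohort 1 Ndufs8 had -0.25 (limma adjusted p = 0.198), with 0.859% called. The unadjusted p was under 0.05 for 8, 10 and 10 members in these 3 comparisons, or 9.76%, 12.2% and 12.5% of those tested, against 10.5%, 9.37% and 7.50% of genes. Across the 22 comparisons the member median was below 0 in 15. The median of all genes was below 0 in most of them too, and comparisons that share a group are not independent.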

How the data were processed

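The values are TPM per gene and embryo as the authors deposited them. Per the submitters' processing notes Bowtie and the mm10 build were used; versions, counting tool and annotation are not given in the sources used here. Per the labels' protocols libraries were made by Smart-seq2. The collection text gives 28 h for every sample, and the stage labels were used. 2 columns matched to no sample were not used. Groups come from the labels, and sessions are a number in titles or descriptions whose meaning is not stated. In blastocyst cohort 3 these disagree for 8 cauda embryos, whose sessions were merged.

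limma 3.58.1 in R 4.3.3 was fitted to log2(TPM + 1) of all genes within a table, with group and session terms, trend and robust settings. A gene was tested if the embryos reaching 1 TPM numbered 50% or more of the size of the smaller group. Benjamini-Hochberg adjusted p under 0.05 over all genes was called. Fold changes on this scale understate those of low genes. The fit was tested on simulated data.

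The members and lists were chosen with earlier results of these data known. Named members are those called (at most 10 in each direction), the 2 smallest p where none was called, the 2 highest of each complex, the 4 largest and 4 smallest differences from 28 h to the blastocyst among members reaching 5 TPM, and all isoform pairs. Atp5k and Ndufa11, named for their promoters, Ndufs7, and the members nearest to passing were picked with their values known. Names and promoters come from RefSeq GRCm38.p6, in which all 85 genes were matched by transcript identifier, and transcript lengths from GENCODE vM21.

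Alternatives were a pseudocount of 0.1, no filter, no session term, the replicate number as a block, median-of-ratios scaling, genes detected as a covariate, 1 mean per session and group, and leaving out 24 libraries with few genes. Leaving out the 8 libraries nearest another stage or time was chosen after seeing the data. Replicate numbers were not taken to pair the embryos in the main fit.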

Additional observations from a re-analysis of the deposited data

Results flagged for a closer look

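In the 8 cauda embryos at 24 h, the only group small enough for a test of a single distant embryo, 24 values were tested and 3 had a highest embryo far from the others. Cox4i2 had 3.6 TPM in that embryo and 1.4 TPM in the next. Cox7b2 had 3.91 TPM and 1.71 TPM in the next. Ndufa4l2 had 5.95 TPM and 1.98 TPM in the next. Chance alone marks about 1 in 20 groups where values are normally spread. All 3 genes had a group median of 0 TPM, so that rate need not hold for them.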

How the results depend on the processing

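Between 18 and 28 h, 65 to 71 members passed under the 9 alternatives, against 66, and 64 to 66 of the calls were shared. The few calls by sperm source or injection moved with the settings, and the cause was not tested. No share of all genes called was tallied under the alternatives, so the counts here have no background beside them. For caput against cauda (3 calls) the count was 1 with no filter, 0 with no session term, 6 with genes detected as a covariate, 0 with 1 mean per session and group, 5 without libraries of few genes and 7 without those nearest another stage or time. For testis against cauda (3 calls) it was 0 with a pseudocount of 0.1, 0 with no filter, 0 with no session term, 8 with genes detected, 0 with means and 6 without libraries of few genes. For injected embryos (2 calls) it was 1 with no filter, 1 with median-of-ratios scaling, 6 with genes detected and 0 with means. Means could not be fitted at 24 h, which has 1 session.

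With the replicate number as a block the counts were 68 for time, 1 for caput (Cox7b in 4-cell cohort 1, none of the 3 calls without the block), 0 for testis and 2 for injected embryos. Of 485 pairs of same-numbered embryos in 19 comparisons, 126 had deviations correlated above 0.1, and no comparison had all pairs above it. The median correlation of a comparison ran from -0.11 to 0.19. It was highest for miRNA against caput in blastocyst cohort 4, where 17 of 29 pairs were above 0.1. Single embryos are noisy, so these values cannot decide whether the numbers pair embryos, and they were not treated as pairs. The block was not run for blastocyst cohort 3.

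Under median-of-ratios scaling over all libraries the summed level was 9698 TPM at 18 h, 11392 TPM at 24 h and 17670.3 TPM in 4-cell embryos, so that 24 h lay above 28 h (10051 TPM). Scaling within tables turned the sign of the member median in morula cohort 1 (-0.06 to 0.01), EpiM against GFP (-0.02 to 0.00) and blastocyst cohort 4 miRNA against caput (-0.01 to 0.07). It also moved caput against cauda at 28 h (-0.10 to -0.21) and in blastocyst cohort 2 (-0.01 to -0.14, with 36 and then 12 members positive). Depth is unknown, so a value of 0 TPM does not show that a transcript was absent.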

Other observations

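Of 6 other mitochondrial gene lists, 3 were highest in blastocysts, as the 85 subunit genes were, and 3 were highest earlier. The summed level of 30 import genes was 3325 TPM at 28 h, 10909.8 TPM in 4-cell embryos, 9682 TPM in morulae and 6758 TPM in blastocysts. Genes for mitochondrial genome upkeep summed to 326 TPM at 28 h, 769.8 TPM in 4-cell embryos and 397 TPM in blastocysts. The regulators of respiratory genes summed to 272 TPM at 18 h, 924 TPM at 28 h, 761 TPM in 4-cell embryos and 282 TPM in blastocysts. Highest in blastocysts were assembly factors, with 1087 TPM at 28 h, 2494 TPM in 4-cell embryos and 2792 TPM in blastocysts, electron carriers, with 527, 1339.8 and 3871 TPM, and tricarboxylic acid cycle genes, with 2664, 5298 and 6687 TPM. These are descriptions across tables, with no test.

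Among injected blastocysts of cohort 4, Cox11, which delivers copper to cytochrome c oxidase, was lower after miRNA than in caput embryos without injection (-0.66, limma adjusted p = 0.0042). Tomm70a, an import receptor of the outer membrane, was lower there too (-0.71, limma adjusted p = 3.08e-05). Both were named from the lists because they were called, and 370 of 12113 genes (3.05%) were called there, 366 of them lower. In the same cohort Tomm70a was higher in caput than in cauda embryos (0.62, limma adjusted p = 0.0011), a comparison that shares the caput embryos. Of 12098 genes tested in that comparison 222 (1.84%) were called, 218 of them higher.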
